A study of Mus musculus with 12 samples.

Results

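Lungs of mice lacking both Tlr3 and Mavs were compared with wild-type lungs across 2 treatments, to find the expression differences that follow the genotype whether or not the mice had met an allergen. Of the 12 RNA sequencing libraries in the series, 6 enter this comparison, all from the knockout set. Wild type was represented by 3 of them (PBS library 1, D.f. libraries 3 and 4), and the other 3 came from TLR3MAVS double knockout (DKO) mice (PBS library 2, D.f. libraries 5 and 6). D.f. stands for Dermatophagoides farinae, a house dust mite whose extract was given as the allergen, PBS is the saline control, and lungs were taken 14 to 16 h after treatment. All groups have B6 as their labelled strain background, and the animals were 6 to 8 weeks old. How the deleted alleles were made, and whether the wild-type mice were littermates of the knockouts, is not given in the labels. The other 6 libraries, the RNase III set, hold wild-type mice alone (PBS, D.f. extract, or D.f. extract treated with the enzyme RNase III, 2 libraries each) and serve below as further wild-type readings.

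Tlr3 is an endosomal receptor that recognises double-stranded RNA and signals through the adaptor Ticam1. Mavs sits on the outer membrane of mitochondria and relays signals from the cytosolic RNA sensors Ddx58 (RIG-I) and Ifih1 (MDA5). Both routes activate the kinase Tbk1 and the transcription factor Irf3, and lead to interferon and to the genes that interferon induces. In mice made by gene targeting, chromosome segments beside the targeted locus can be inherited with it from the stem cells in which it was made, and for that reason the position of each difference relative to Mavs and Tlr3 is given here.

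Each library held between 15687699 and 20945618 reads assigned to genes. Levels are in CPM, reads per gene relative to the library total after TMM scaling in edgeR. At this depth 3 reads, the upper limit for a count of 0, were 0.143 to 0.191 CPM, and such limits and all intervals below cover counting error only. The labels do not say that libraries of a group came from separate animals, so that p-values rest on a spread between libraries that may be technical. Genes of lung cell types were abundant in every library: the 8 alveolar type 2 markers summed to between 10950 and 15930 CPM and the 7 alveolar type 1 markers to between 3981 and 4487 CPM. The Y-linked gene Ddx3y lay between 107 and 121 CPM and Xist below 1 CPM in all 6 libraries of the knockout set. Summed heart muscle markers separated the genotypes, and their values are given with the muscle genes below.

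The targeted genes were read first. Mavs (NCBIM37, which is mm9, chromosome 2, 131059799 to 131073761, plus strand) measured 36.4 CPM in the wild-type PBS library and 34.3 and 32.2 CPM in the wild-type D.f. libraries. In the knockout it measured 3.09 CPM with PBS and 2.66 and 2.35 CPM with D.f. extract. The genotypes lay far apart under both treatments, and neither genotype differed much between treatments. Fitted across treatments, Mavs fell by 3.67 ± 0.11 on the log2 scale (± SE), a 12.7-fold difference (quasi-likelihood test in edgeR, p adjusted by Benjamini-Hochberg over all genes, adjusted p = 4.0e-04). Some 146 reads in all were still assigned to Mavs over the 3 knockout libraries, against 1872 in the wild type. Which exons the allele lacks is not given in the labels, and reads are summed per gene.

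Tlr3 (chromosome 8, 46481019 to 46495962, minus strand) was also lower in each knockout library than in each wild-type library. Its level was 42.4 CPM in wild type with PBS and 156 and 113 CPM with D.f. extract, against 10.5 CPM in the knockout with PBS and 14.8 and 10 CPM with D.f. extract. Unlike Mavs, wild-type Tlr3 was several times higher in the D.f. libraries than in the PBS library, and the knockout level stayed in a narrow range. The log2 difference across treatments was -2.99 ± 0.35 (edgeR adjusted p = 0.0517), which missed the threshold of 0.05. With D.f. extract alone Tlr3 fell by 3.44 on the log2 scale (edgeR adjusted p = 0.00988), and the PBS pair differed by -2.0. The test of whether the difference changed with treatment gave an adjusted p = 0.353.

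**Figure D1:**
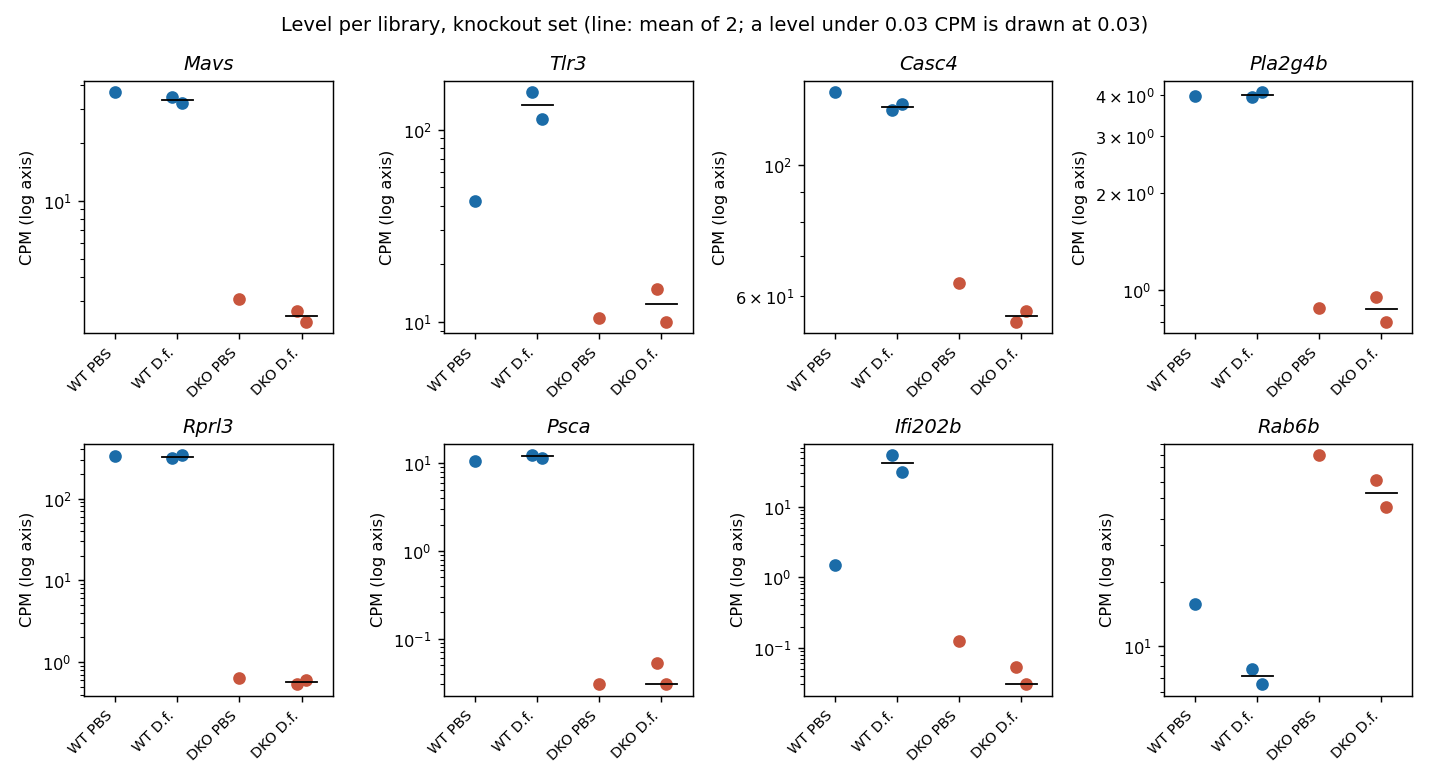
Level of 8 genes in each library of the knockout set, in CPM on a log axis that differs between panels, with wild type in blue and knockout in red, 1 library per genotype with PBS and 2 with D.f. extract, and a line at the mean of 2 libraries. In all 8 panels the genotypes do not overlap, and Tlr3 and Ifi202b also differ between PBS and D.f. extract within the wild type.

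Across treatments, 31 of 15294 genes tested differed between the genotypes (0.203%, edgeR adjusted p under 0.05). Of these, 27 were lower in the knockout (0.177% of genes tested) and 4 were higher (0.0262%). The 3 knockout libraries did not overlap the 3 wild-type libraries for any of the 31, a pattern that 16.8% of all genes tested showed (9.34% higher and 7.49% lower in the knockout). The test that chose the 31 used the same libraries and favours such a separation. All 31 had the same sign in the PBS pair, which entered this fit, 28 of them by at least 2-fold, and the exceptions were Alpk1, Crip1 and Plod1. No gene of the 31 passed the test for a difference that changed with treatment (smallest adjusted p = 0.464, 2 genes with an unadjusted p under 0.05). The fit that chose the 31 favours differences alike in both treatments, and each genotype has 1 PBS library. This result therefore does not show that the 31 differences were the same under both treatments. Over all genes that interaction test called 1 (0.00654%), Ccl5, a chemokine that attracts T cells. Ccl5 is not among the 31: it was 3.24 CPM in wild type and 12 CPM in the knockout with PBS, then 50.6 and 44.1 CPM in wild type and 6.01 and 5.55 CPM in the knockout with D.f. extract.

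The number of genes called rests on few libraries. It was 2 without either wild-type D.f. library, 4 without knockout D.f. library 5 and 9 without knockout D.f. library 6, and it was 352 without the wild-type PBS library and 383 without the knockout PBS library. Without either PBS library the fit reads the D.f. difference alone, so that these last counts are not counts across treatments. DESeq2 called 481 genes, 197 of them higher in the knockout, with all 31 among them. Mavs and Rprl3 were called in every one of these fits. Each of the other 29 genes lost its call on leaving out at least 1 D.f. library, while none of the 31 changed sign under any setting.

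The contrast of the genotypes with D.f. extract, taken from a fit with a mean for each group, gives a second reading in which the PBS pair does not enter the difference. By this contrast 387 genes differed (2.53%), 308 lower (2.01%) and 79 higher in the knockout (0.517%). In the PBS pair, which had no part in choosing them, 52 of the 308 lower genes were at least 2-fold lower (16.9%, against 3.35% of all genes tested). Of the 79 higher genes, 8 were at least 2-fold higher with PBS (10.1%, against 2.18%). Together 60 genes (0.392% of genes tested) were present under both treatments by this measure, 10 of the 387 were at least 2-fold the opposite way with PBS, and 52.5% had the same sign. Hence most genes that separated the genotypes with D.f. extract did not do so by 2-fold with PBS. The 387 became 7 and 17 without wild-type D.f. libraries 3 and 4 and 3048 and 2479 without knockout D.f. libraries 5 and 6, and the 60 became 1, 3, 195 and 201. With 1 PBS library per genotype, the PBS difference has no replicate check.

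**Figure D2:**
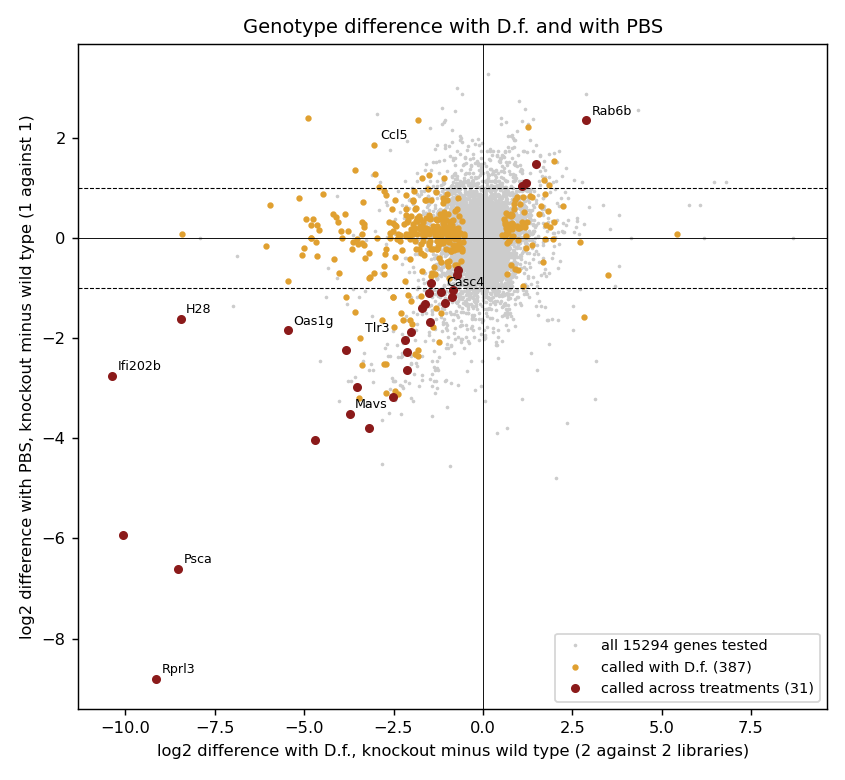
Log2 difference between knockout and wild type with D.f. extract (x axis, 2 against 2 libraries) and with PBS (y axis, 1 against 1 library) for the 15294 genes tested, with the 387 genes called with D.f. extract in orange and the 31 genes called across treatments in dark red. Most orange points spread along the horizontal zero line, and the dark red points lie in the lower left and upper right.

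The genes called across treatments were then placed on the genome. A position in NCBIM37 was found for 29 of the 31, on 14 chromosomes, with 5 on chromosome 3 and 4 each on chromosomes 1 and 2. Within 10 Mb of Mavs, 2 of 152 genes tested were called (1.32%, beside 0.194% of all genes placed), Casc4 and Mavs itself. Without the deleted gene it was 1 of 151 (0.662%). Within 20 Mb there were 4 of 289, with Pla2g4b and Gm1337 added. These were the only called genes on chromosome 2. As above, fits without a PBS library read the D.f. difference by itself. The count within 10 Mb of either locus was 8 and 9 without the wild-type and the knockout PBS library, 1 without wild-type D.f. library 3 or 4 or knockout D.f. library 5, and 10 with DESeq2.

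All 3 neighbours lay on the lower-coordinate side of Mavs, at 9 to 13 Mb from it. Casc4 (chromosome 2, 121692706 to 121761956, plus strand, 9.30 Mb from Mavs) measured 133, 124 and 127 CPM in the wild-type PBS and D.f. libraries and 63.1, 54.2 and 56.6 CPM in the corresponding knockout libraries. It fell by 1.14 ± 0.07 on the log2 scale (edgeR adjusted p = 0.00799), and the PBS pair differed by -1.08. Casc4 was thus lower by a similar amount under both treatments, and neither genotype varied much between libraries. Pla2g4b, a cytosolic phospholipase A2 (119853219 to 119868769, plus strand, 11.19 Mb from Mavs), measured 3.99, 3.95 and 4.08 CPM in wild type and 0.883, 0.957 and 0.8 CPM in the knockout. The difference was -2.18 ± 0.21 (edgeR adjusted p = 0.0345) and rested on 218 wild-type and 48 knockout reads. Gm1337, an unnamed gene model (118524839 to 118529699, minus strand, 12.53 Mb from Mavs), measured 12.1, 6.61 and 8.40 CPM in wild type and 1.45, 0.904 and 0.4 CPM in the knockout, a difference of -3.34 ± 0.30.

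The stretch from 9 to 13 Mb before Mavs was singled out after its values were seen. It held 88 genes tested, of which 3 were called across treatments (3.41%) and 8 with D.f. extract (9.09%, against 2.53% of all genes). The D.f. calls include Eif3j, a subunit of the translation initiation factor eIF3 (9.18 Mb from Mavs), at 5.12, 7.50 and 6.54 CPM in wild type and 2.08, 1.75 and 1.75 CPM in the knockout. Eif3j did not pass across treatments (-1.77 ± 0.22, edgeR adjusted p = 0.0571), although its libraries did not overlap. Jmjd7, which RefSeq places between Mapkbp1 and Pla2g4b and whose reads may overlap those of Pla2g4b, measured 3.59, 3.45 and 3.12 CPM against 1.01, 1.01 and 0.650 CPM (-1.93 ± 0.25, edgeR adjusted p = 0.0637). The remaining D.f. calls of the stretch were Bub1b and Disp2, lower by 0.97 and 1.24 on the log2 scale across treatments without passing, Pak6, a kinase gene that was higher with D.f. extract, and B2m, the light chain of MHC class I. B2m had opposite signs in the 2 treatments, with a PBS difference of 0.52.

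Nearer to Mavs, between 0 and 9 Mb before it, none of 96 genes tested was called across treatments (0.203% of all genes were) and 4 were with D.f. extract (4.17%, beside 2.53% of all genes). In the 20 Mb after it none of 81 was called in either comparison. At the share of all genes less than 1 call across treatments would fall in either stretch, so that these counts of 0 do not set them apart. Within 0.5 Mb, the 16 other genes tested lay between -1.30 and 0.32 on the log2 scale. The lowest was Siglec1, a sialic acid receptor of macrophages, at 22.0 CPM in wild type and 24.2 CPM in the knockout with PBS, and at 100 and 77.8 CPM against 28.3 and 17.7 CPM with D.f. extract. The test of whether its difference changed with treatment did not pass (edgeR adjusted p = 0.237). Without Siglec1, which passed with D.f. extract (edgeR adjusted p = 0.0274), no gene of these 16 was called in either fit. Pank2, which starts next to the end of Mavs, differed by 0.01, and Hspa12b was the highest at 0.32 ± 0.09 (edgeR adjusted p = 0.240).

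Around Tlr3, none of 58 genes within 10 Mb and none of 118 within 20 Mb passed across treatments. With 0.194% of all placed genes called, less than 1 call would fall in a window of that size, and the count of 0 is at that background. The 7 other genes within 0.5 Mb differed by -0.51 to 0.22 on the log2 scale. Sorbs2, a cytoskeletal adaptor gene 0.10 Mb from Tlr3, was the lowest of them, at 16.2, 14.0 and 15.1 CPM in wild type and 8.70, 10.8 and 12.3 CPM in the knockout (edgeR adjusted p = 0.255). Fam149a, 0.01 Mb from Tlr3, was the highest, at 0.22 ± 0.08. Leaving Tlr3 out, 18 of 57 genes within 10 Mb had libraries that did not overlap between the genotypes, 7 higher and 11 lower in the knockout. With Tlr3 the share was 32.8%, beside 16.8% of all genes, while within 10 Mb of Mavs it was 14.5%. The median log2 difference of the 57 genes was -0.05. Among those that did not overlap was Vegfc, a lymphatic growth factor 8.67 Mb from Tlr3, which differed by 0.62 ± 0.10 (edgeR adjusted p = 0.0915). Of the genes called on chromosome 8, Myom2 lay 31.35 Mb and Zfp868 25.64 Mb from Tlr3.

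**Figure D3:**
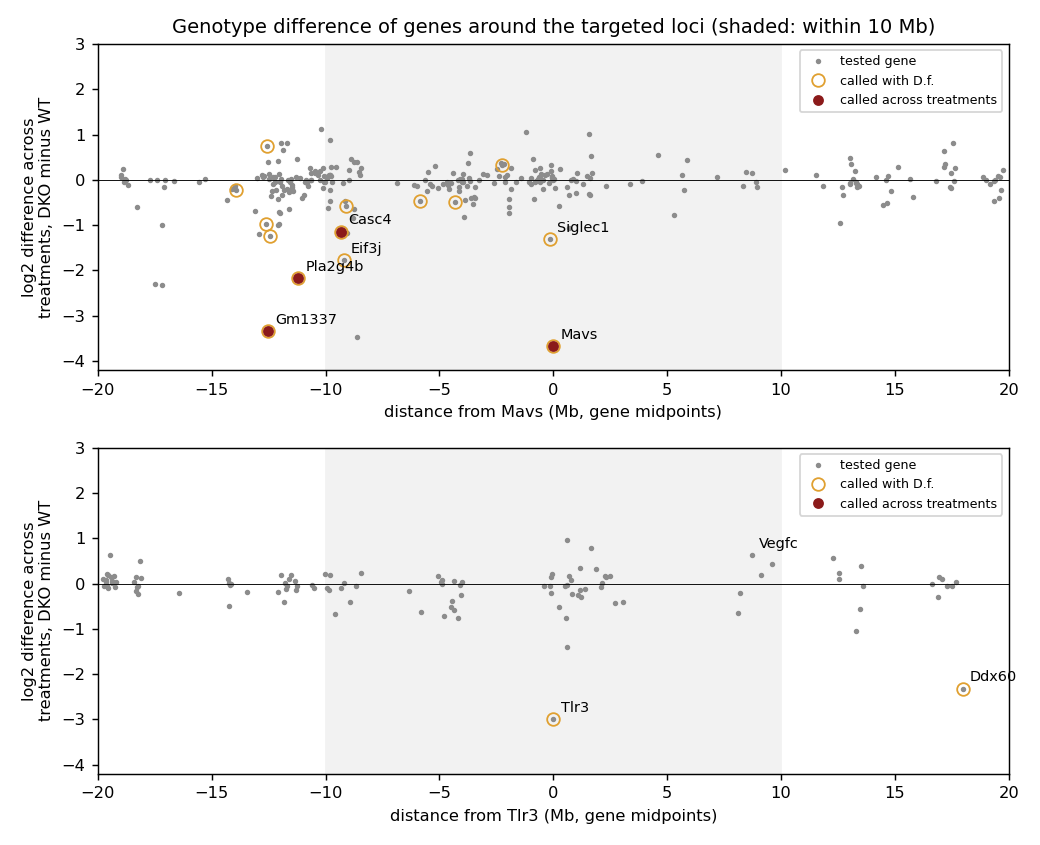
Log2 difference across treatments (knockout minus wild type, y axis) of each gene tested within 20 Mb of Mavs (upper panel) and of Tlr3 (lower panel), against its distance in Mb (x axis, gene midpoints), with genes called across treatments filled in dark red and genes called with D.f. extract ringed in orange. The called genes beside Mavs lie 9 to 13 Mb to its left, and no filled point appears around Tlr3.

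Several of the 31 genes were read in wild type and nearly or fully unread in the knockout, and none of those with a position lay on chromosome 2 or 8. Rprl3 and Rprl2 are copies related to the RNA component of ribonuclease P, an enzyme that trims transfer RNA precursors. Rprl3 measured 329, 311 and 339 CPM in wild type and 0.631, 0.532 and 0.600 CPM in the knockout. That is 17746 against 32 reads, a ratio of 556 with a counting interval of 394 to 814 (95%). Across treatments Rprl3 fell by 9.11 ± 0.12 on the log2 scale and had the smallest p of all genes (edgeR adjusted p = 4.2e-06). Rprl2 had no read in any knockout library and 385 in wild type (6.60, 6.41 and 8.34 CPM), which makes it at least 42.9-fold lower, set against 3 reads for each knockout library.

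No NCBIM37 position was found for either copy. In RefSeq (GRCm38.p6) Rprl3 lies between Cd209a and Cd209e, which in NCBIM37 are 42.73 and 42.63 Mb from Tlr3 on chromosome 8, and Rprl2 lies between Tbl1xr1 and Naaladl2 on chromosome 3. Reads of near-identical copies were set aside when they aligned to several places, so the counts of both are uncertain. Rpph1, the RNA component of ribonuclease P itself, measured 3057, 2741 and 2987 CPM in wild type and 3520, 3336 and 3250 CPM in the knockout (0.20 ± 0.07, edgeR adjusted p = 0.301). Rmrp, the related RNA of the mitochondrial RNA processing enzyme, differed by 0.13 ± 0.08. The lower counts of Rprl3 and Rprl2 therefore did not extend to these other RNA components.

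Psca, a small surface protein of the Ly6 family that is anchored by a lipid (chromosome 15, 74545269 to 74547493, plus strand), measured 10.6, 12.4 and 11.6 CPM in wild type, and 1 read was assigned to it in the 3 knockout libraries together. The ratio of reads was 633 (interval 113 to 25041), and the gene was called with an edgeR adjusted p = 0.00352. 1700084C01Rik, an unnamed transcript on chromosome 1 (171858779 to 171864784), was at 6.83, 8.93 and 8.82 CPM in wild type and at 0.315, 0.213 and 0.450 CPM in the knockout. Both genes were about as high with PBS as with D.f. extract in the wild type, as was Rprl3.

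Ifi202b, H28 and Oas1g were different in this respect, because wild type had them low with PBS and high with D.f. extract. Ifi202b encodes an interferon-inducible protein of the p200 family that binds DNA (chromosome 1, 175892700 to 175912975, minus strand). Its level was 1.48 CPM in the wild-type PBS library and 54.6 and 31.2 CPM with D.f. extract, and 3 reads in all were found in the knockout. H28, a minor histocompatibility antigen (chromosome 3, 151422605 to 151425870, minus strand), measured 0.228, 24.4 and 16.3 CPM in wild type, and had 2 reads in the knockout libraries. For H28 the PBS difference was within counting error, with an interval that included 0. Oas1g encodes a 2'-5' oligoadenylate synthetase, which makes the activator of RNase L when it binds double-stranded RNA (chromosome 5, 121326151 to 121337622, minus strand). It measured 0.512, 14.7 and 12.8 CPM in wild type and 0.0631, 0.266 and 0.350 CPM in the knockout. Ifi202b and Oas1g have close relatives, and reads shared with them could not be counted.

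The promoter of Oas1g is shown because it was the only one, of 20 called genes with a promoter sequence from RefSeq, to hold the motif GAAANNGAAA, a core of the element bound by interferon-activated factors. The motif was searched on both strands in the 250 bases before the start. It was found in 978 of 32851 promoters (2.98%), and in 12 of 28 (42.9%) of those of a list of interferon-stimulated genes. The sequence is that of GRCm38.p6, chr5:120887614-120887863, minus strand, and capitals mark 2 overlapping matches, which begin 18 and 12 bases before the start.
Oas1g: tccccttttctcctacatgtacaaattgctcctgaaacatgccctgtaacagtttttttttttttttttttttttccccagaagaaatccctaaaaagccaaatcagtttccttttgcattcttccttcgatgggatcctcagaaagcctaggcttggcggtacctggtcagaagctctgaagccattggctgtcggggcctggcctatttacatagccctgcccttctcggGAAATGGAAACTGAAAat
The presence or absence of these letters is a description of the window alone.

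A further group of the lower genes belongs to striated muscle. Ckm, the muscle creatine kinase, measured 7.51, 4.24 and 5.64 CPM in wild type and 0.441, 0.372 and 0.700 CPM in the knockout (-3.45 ± 0.33, edgeR adjusted p = 0.0345). Pln encodes phospholamban, which restrains the calcium pump of the sarcoplasmic reticulum, and was at 12, 7.20 and 8.16 CPM against 1.83, 1.33 and 2.15 CPM. The sarcomere M-band gene Myom2 was at 14.1, 7.35 and 12.2 CPM against 2.84, 2.02 and 2.45 CPM. Srl, the sarcoplasmic reticulum calcium-binding protein sarcalumenin, was at 18.7, 12.7 and 15.1 CPM against 5.74, 4.47 and 5.55 CPM. The 4 genes followed the same order over the wild-type libraries, highest with PBS and lowest in D.f. library 3.

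Heart muscle markers, a separate list of 12 genes without these 4, moved with them. Their summed level was 1951, 1006 and 1495 CPM in the wild-type PBS and D.f. libraries and 296, 218 and 375 CPM in the knockout. None of the 10 markers tested was called across treatments and 3 were lower with D.f. extract, but 9 of the 10 were lower without overlap (7.49% of all genes were) and all 10 were at least 2-fold lower in the PBS pair (3.35% of all genes), with a median log2 difference across treatments of -2.31. Myh6, the myosin heavy chain of atrial muscle, measured 426, 213 and 333 CPM in wild type and 37.8, 20.7 and 67.0 CPM in the knockout (edgeR adjusted p = 0.104). Titin (Ttn) was at 1088, 540 and 799 CPM against 142, 86.4 and 181 CPM, and the ryanodine receptor gene Ryr2 missed the threshold narrowly (-1.53 ± 0.18, edgeR adjusted p = 0.0521). In bulk tissue, fewer cells of a type and less RNA per cell cannot be told apart. The part of muscle content in the differences of Ckm, Pln, Myom2 and Srl was not tested.

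Wild-type lungs of the other set also varied widely. Over the 6 libraries of the RNase III set the summed heart markers ran from 324 to 2844 CPM. PBS library 1 of that set lay within the knockout range, above knockout PBS library 2 and D.f. library 5 and below D.f. library 6, and PBS library 2 lay above every wild-type library of the knockout set. Ckm, Pln, Myom2 and Srl followed the sum there, with Ckm at 0.829 CPM in PBS library 1 and 18.0 CPM in PBS library 2. Fbp2, the muscle form of fructose-1,6-bisphosphatase, did not follow it. It measured 2.5, 4.83 and 4.86 CPM in wild type and 0.441, 0.372 and 0.300 CPM in the knockout (-3.42 ± 0.34, edgeR adjusted p = 0.0367). In the RNase III set Fbp2 was 2.60 CPM in PBS library 1, where the heart markers were lowest, and 0.349 to 0.642 CPM in the other 5 libraries.

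**Figure D4:**
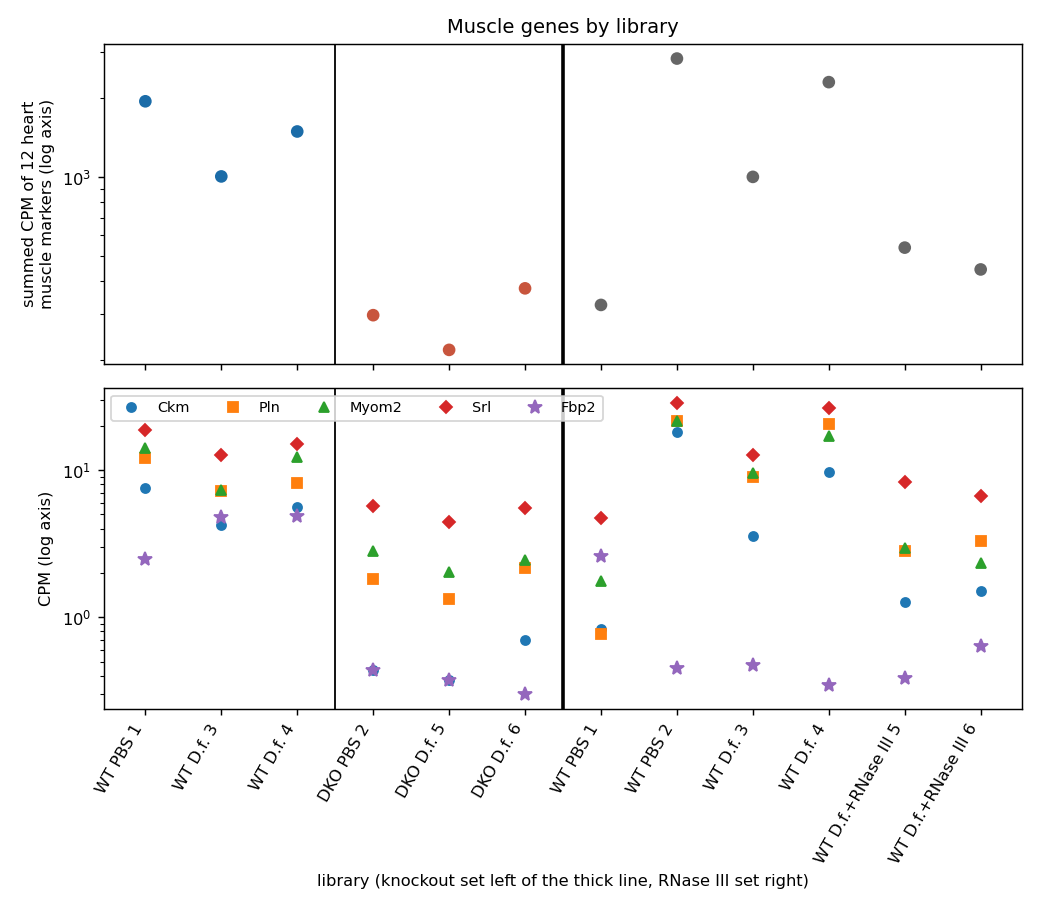
Summed CPM of 12 heart muscle markers (upper panel) and CPM of 5 muscle genes called lower in the knockout (lower panel), per library on log axes, for the knockout set and, right of the thick line, the wild-type RNase III set. The knockout libraries lie between 218 and 375 CPM and the wild-type libraries of the same set between 1006 and 1951 CPM, and the RNase III set runs from 324 to 2844 CPM, with Fbp2 not following the other 4 genes.

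The other lower genes are given by what each encodes. Tnn, a tenascin of the matrix (chromosome 1, 162015165 to 162083711), measured 22.7, 15 and 19.0 CPM in wild type and 2.40, 3.88 and 2.10 CPM in the knockout (-2.74 ± 0.28, edgeR adjusted p = 0.0401). Plod1, which hydroxylates lysines of collagen, was less changed but very even, at 84.1, 83.3 and 87.2 CPM against 53.5, 52.5 and 52.7 CPM. Its log2 difference was -0.68 ± 0.06, the smallest of the 31.

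Several of the lower genes encode enzymes, described here one by one and not as a tested group. Bche, the butyrylcholinesterase of plasma, measured 26.4, 25.4 and 31.3 CPM against 12.3, 9.89 and 9.95 CPM, and Gdpd3, a phosphodiesterase of lysophospholipids, 26.1, 18.3 and 17.7 CPM against 10.5, 8.61 and 8.50 CPM. Arsj, an arylsulfatase, was at 14.1, 13.8 and 16.2 CPM against 5.55, 4.47 and 5.35 CPM. These 3 separated the genotypes by 1.15 to 1.52 on the log2 scale, with little spread inside either genotype. Cyp2a5, a cytochrome P450 that oxidises nicotine and coumarin, fell by 1.99 ± 0.19 (edgeR adjusted p = 0.0345). Ch25h, which makes the antiviral oxysterol 25-hydroxycholesterol and is inducible by interferon, was 9.05, 26.6 and 22.1 CPM in wild type and 3.34, 6.22 and 8.65 CPM in the knockout. In both genotypes the PBS library had the least Ch25h, and the knockout was below the wild type under each treatment (-1.63 ± 0.17, edgeR adjusted p = 0.0441).

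The remaining lower genes have other roles. Alpk1, the kinase that senses a bacterial heptose, measured 23.7, 43.3 and 38.5 CPM in wild type and 12.6, 15.5 and 14.5 CPM in the knockout, and in the PBS pair it differed by -0.91, under 2-fold. Alpk1 was one of the 2 genes of the list whose unadjusted interaction p in edgeR was under 0.05, with an adjusted p = 0.491. The other was Ifi202b (edgeR adjusted p = 0.464). Crip1, a small LIM domain protein, was 1.67-fold lower, with a PBS difference of -0.75. Mtap2, which binds microtubules, measured 49.9, 49.1 and 48.0 CPM against 24.2, 29.5 and 25.2 CPM. The zinc finger gene Zfp868 measured 27.3, 25.9 and 24.7 CPM against 12, 13.3 and 14.4 CPM, and with an edgeR adjusted p = 0.0497 it was at the edge of the threshold.

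Only 4 genes were higher in the knockout across treatments, on 4 chromosomes and none on chromosome 2 or 8. Rab6b, a small GTPase of Golgi transport (chromosome 9, 103014404 to 103087600, plus strand), had the largest rise. It measured 15.7, 7.74 and 6.54 CPM in wild type and 80.0, 61.0 and 45.2 CPM in the knockout, a 6.5-fold difference (2.70 ± 0.18 on the log2 scale, edgeR adjusted p = 0.0102). In both genotypes the PBS library was the highest, and the lowest knockout library was far above the highest wild-type library. Ppbp, the platelet chemokine also known as Cxcl7 (chromosome 5, 91197544 to 91199086, plus strand), was at 4.67, 4.39 and 4.26 CPM against 13.2, 12.3 and 12 CPM. It was the only one of 6 platelet markers to pass. The 6 together, Ppbp included, summed to 18.4 to 21.0 CPM in wild type and 29.7 to 36.8 CPM in the knockout, with a median difference of 0.49, and 2 of the 6 were higher in the knockout without overlap (9.34% of all genes were). The part of platelet content in the difference of Ppbp was not tested. Scube1, a secreted and surface protein of platelets and endothelium (chromosome 15, 83433013 to 83555451), measured 32.2, 18.5 and 22.4 CPM against 68.9, 49.7 and 44.1 CPM. Rps3a, a protein of the small ribosomal subunit (chromosome 3, 85941862 to 85946624), rose 2.10-fold, from 9.39, 9.96 and 8.70 CPM to 19.3, 20.3 and 19.4 CPM, and its count is uncertain because the gene has many processed copies.

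Of the 60 genes called with D.f. extract and at least 2-fold the same way with PBS, 28 are among the 31 and the rest did not pass across treatments. Placed members of the 60 were spread over 17 chromosomes. Of the 60, 58 did not overlap between the genotypes (16.8% of all genes did not). The choice of the 60 on the same libraries largely fixed this in advance. The muscle genes recur here, with Kcnj3, a potassium channel gene of the atrium, at 3.81, 1.33 and 2.22 CPM against 0.315, 0.106 and 0.200 CPM, and Myl4, the atrial light chain of myosin, at 41.6, 24.1 and 39.8 CPM against 4.92, 3.72 and 7.85 CPM. By chromosome, 8 of the 60 were on chromosome 1 (0.892% of its genes tested), 6 on chromosome 2 (0.513%) and 6 on chromosome 8 (0.753%), Mavs and Tlr3 included, beside 0.375% of all genes placed. On chromosome 8, Sall1, a transcription factor gene (91551147 to 91568061), measured 3.19, 3.75 and 4.92 CPM in wild type and 0.946, 1.06 and 1.05 CPM in the knockout (edgeR adjusted p = 0.0523 across treatments). Neto2, an accessory subunit of kainate receptors, was at 12.8, 11.5 and 13.7 CPM against 4.73, 4.47 and 5.65 CPM (edgeR adjusted p = 0.0514). Both missed the threshold across treatments by little and had passed with D.f. extract. Sall1 lay 45.06 Mb and Neto2 41.67 Mb from Tlr3. In the 6 wild-type libraries of the RNase III set, Sall1 measured 0.589 to 1.44 CPM and Neto2 4.9 to 7.35 CPM. By the midpoints given below, both were on the knockout side in all 6. Among the higher genes, Slc6a2, the noradrenaline transporter, measured 34.9, 36.9 and 36.4 CPM in wild type and 102, 96.3 and 193 CPM in the knockout. Dpysl5, a protein of growing axons, measured 7.29, 4.88 and 4.32 CPM against 16.3, 12.7 and 17.2 CPM. By the same midpoints, Kcnj3 and Myl4 were on the wild-type side in 5 libraries of the RNase III set, Slc6a2 in 4 and Dpysl5 in 6.

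The genes of the pathway that was deleted behaved otherwise, since few of them separated the genotypes with PBS. Of 10 sensors of double-stranded RNA, all 10 tested, none was called across treatments, and all 10 were lower with D.f. extract (2.01% of all genes were). At the 0.203% of all genes called across treatments, less than 1 call would fall in this list or in any list below. Counts of 0 across treatments therefore do not set these lists apart. The list holds Tlr3, itself a deleted gene and the 1 member at least 2-fold lower with PBS. The median difference of the 10 was -2.38 across treatments and 0.17 with PBS, beside 0.01 and 0.02 for all genes. Ifih1, for example, was 64.8 CPM in wild type and 71.4 CPM in the knockout with PBS, and 490 and 374 CPM against 90.0 and 61.4 CPM with D.f. extract. Ddx58 had the same pattern, at 83.1 against 87.2 CPM with PBS. Among 10 adaptors, Mavs alone passed, and Ticam1, the adaptor of Tlr3, differed by 0.15 ± 0.12 (edgeR adjusted p = 0.621). Of 12 kinases and transcription factors below the adaptors none passed across treatments, and 1, Irf7, was lower with D.f. extract (2.01% of all genes were). Irf7 was at 11.1 and 14.4 CPM with PBS in wild type and knockout, and at 769 and 628 CPM against 34.8 and 16.6 CPM with D.f. extract. Irf3 differed by 0.14 ± 0.07.

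Interferon-stimulated genes followed the sensors. Of 40 tested, none was called across treatments (0.203% of all genes were), and 33 were lower with D.f. extract (2.01% of all genes were). Their median was -2.17 across treatments and 0.24 with PBS. The count was 7 with DESeq2 across treatments and 30 from the D.f. libraries alone. Leaving out a PBS library also leaves the D.f. difference alone, so that such a fit gives no count across treatments. The list shares Ifih1, Oas2, Oas3, Dhx58 and Zbp1 with the sensors. Oas1g, Ifi202b and Ch25h, called across treatments and described above, are on neither list, so the counts hold for the listed genes alone. Xaf1, a proapoptotic interferon-stimulated gene, was the only member at least 2-fold lower with PBS as well as called with D.f. extract. It measured 34.7 CPM in wild type and 15.1 CPM in the knockout with PBS, and 343 and 293 CPM against 31.2 and 13.3 CPM with D.f. extract. Cxcl10 was 1.71 against 1.51 CPM with PBS, and 411 and 206 CPM against 2.76 and 6.45 CPM with D.f. extract. Of 12 genes of MHC class I presentation none passed across treatments and 5 were lower with D.f. extract, beside the same shares of all genes. Of 9 genes of class II none passed in either. Interferons themselves were near 0, with 1 of 6 listed genes in the tables, Ifng, high enough to test.

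Lists that mark the animals or the cell content were read in the same way. With 0.203% of all genes called across treatments, less than 1 call would fall in any of them. Of 6 genes that vary between B6 substrains none was called, which is at that background. Without overlap, 2 of the 6 were higher and 1 was lower in the knockout (9.34% and 7.49% of all genes were). Nnt, a mitochondrial transhydrogenase that some B6 substrains lack, measured 38.9, 33.2 and 35.7 CPM in wild type. In the knockout it measured 63.3, 63.6 and 48.8 CPM (0.70 ± 0.11, edgeR adjusted p = 0.0961). Reads of Nnt were thus found in both genotypes, and its libraries did not overlap. Because reads are summed per gene, these counts do not show which Nnt allele either genotype carries. Wdfy1 differed by 0.38 ± 0.07 (edgeR adjusted p = 0.137) and Entpd4 by -0.56 ± 0.11 (edgeR adjusted p = 0.142). NK cell markers were at least 2-fold higher in the knockout PBS library for 9 of 9 genes tested (2.18% of all genes were). None was called in either comparison, and their median across treatments was 0.04. Neutrophil markers had a median of 1.16 across treatments, also with none called, and knockout D.f. library 6 held the highest sum (301 CPM, beside 33.7 to 140 CPM in the other libraries). Adipose markers were lower with PBS, at least 2-fold for 5 of 6 tested (3.35% of all genes were), with a median of -2.49. Across treatments their median was -1.29, with 4 of 6 lower without overlap (7.49% of all genes were) and none called. Their sum, over 9 genes, was 43.0, 14.8 and 16.3 CPM in wild type and 8.07, 11.9 and 17.5 CPM in the knockout, so that the sums of the genotypes overlapped. Of the other cell type lists, none but platelets had a member that passed across treatments. Sums were higher in the knockout without overlap for alveolar macrophages (543 to 689 against 457 to 474 CPM) and endothelium (4475 to 5282 against 3956 to 4372 CPM). They were lower without overlap for fibroblasts (3546 to 4292 against 4584 to 5142 CPM), smooth muscle and pericytes (1084 to 1251 against 1278 to 1357 CPM) and cartilage, at 0.66 CPM or less. These sums were not tested.

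The 6 wild-type libraries of the RNase III set gave a further reading of the 31 genes, of which 29 are in its tables. That set was counted on another gene table, its libraries had no reads of Ddx3y and 1400 to 2173 CPM of Xist, and its levels are set side by side without a test. Each level was compared with a midpoint of wild type and knockout on the log scale, taken from the knockout set separately by treatment. For a PBS library this midpoint came from the PBS pair, with 1 library per genotype. For a D.f. library it came from the genotype means with D.f. extract. The libraries with RNase III-treated extract, a treatment that the knockout set lacks, were also set against the D.f. midpoint. For genes higher with D.f. extract in the wild type, such as Oas1g and Ch25h, the side there rests on this choice. Mavs, Gm1337, Pla2g4b, Casc4 and Scube1 were on the wild-type side in all 6 libraries. Mavs lay between 28.2 and 37.9 CPM there (32.2 to 36.4 CPM in wild type of the knockout set), Casc4 between 102 and 186 CPM (124 to 133 CPM) and Gm1337 between 14.3 and 27.0 CPM (6.61 to 12.1 CPM). All 4 genes called on chromosome 2 are in this group. The share of all measured genes on the wild-type side in all 6 libraries was not counted. Atrn and Cenpb, near Mavs and not called, were also on that side in all 6.

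Most other genes of the list did not keep to the wild-type side in these wild-type mice. For 12 of the 29, PBS library 1 of the RNase III set was on the wild-type side and the other 5 libraries on the knockout side. The share of all measured genes with this pattern was not counted. Psca, as an example, measured 9.01 CPM in PBS library 1 and 0.0436 to 0.214 CPM in the other 5. Ifi202b was 2.65 CPM in PBS library 1 and 0.131 CPM or less in the others, although 2 of these had received D.f. extract, with which wild-type mice of the knockout set reached 54.6 and 31.2 CPM. Rab6b was 16.5 CPM in PBS library 1 and 33.7 to 70.5 CPM in the other 5, and Tnn was 20.2 CPM and then 1.71 to 4.98 CPM. The group also holds H28, 1700084C01Rik, Fbp2, Bche, Gdpd3, Zfp868, Mtap2 and Plod1, and its genes lie on 8 chromosomes. H28 was at 0.166 CPM in PBS library 1, about the 3-read limit there (0.169 CPM), so that this level could not be told from 0. H28 was without a read in the other 5 libraries, D.f. libraries included. For Plod1 the separation was slight, since PBS library 1 had 67.2 CPM and the next library 65.9 CPM. In 5 wild-type libraries with wild-type levels of Mavs, these genes were thus closer to the knockout level than to the wild-type level.

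Counted by library, PBS library 1 of the RNase III set was on the wild-type side for 23 of the 29 genes (79.3%, beside 51.9% of all genes measured in both sets). PBS library 2 was on that side for 14 (48.3%, beside 53% of all genes). D.f. libraries 3 and 4 were on it for 14 and 15 (48.3% and 51.7%, beside 58.8% of all genes in each). The libraries with RNase III-treated extract, 5 and 6, were on it for 8 and 7 (27.6% and 24.1%, beside 47.6% and 46.4% of all genes). Another 6 genes, Ckm, Pln, Myom2, Srl, Cyp2a5 and Ch25h, were on the wild-type side in PBS library 2 and the D.f. libraries and on the knockout side in the other 3. For the muscle genes these are the libraries with the higher heart marker sums. The labels name no breeding line or litter, and the genotype cannot be told apart from any other difference between the wild-type and knockout mice of the knockout set.

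**Figure D5:**
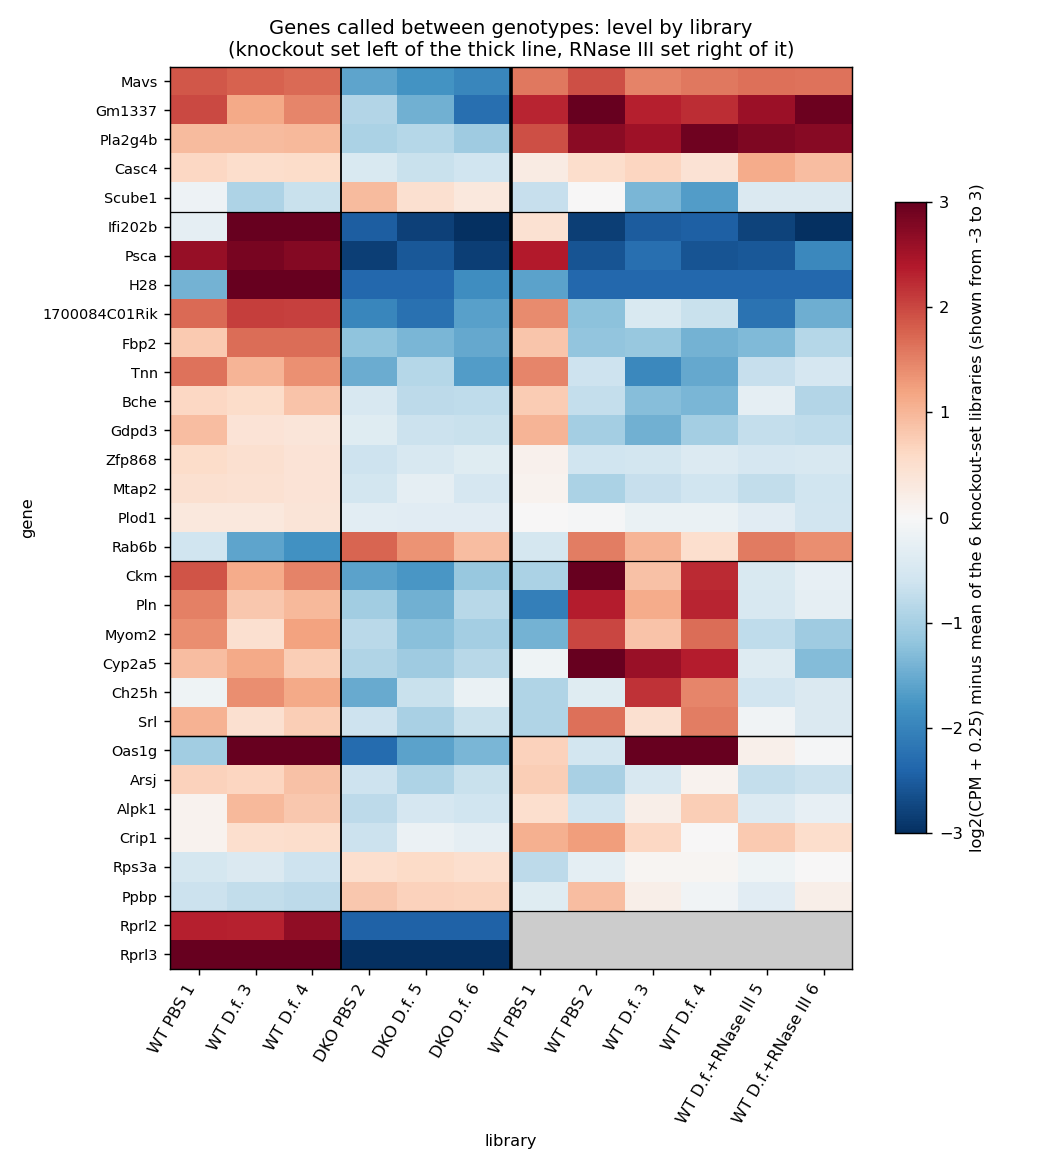
Level of the called genes in each library as log2(CPM + 0.25) minus the mean of the 6 libraries of the knockout set (colour, shown from -3 to 3), with genes as rows, the knockout set left of the thick line and the wild-type RNase III set right of it. By the midpoints given in the text, Mavs, Gm1337, Pla2g4b, Casc4 and Scube1 are on the wild-type side in all 6 libraries on the right. By the same rule 12 genes are on that side in PBS library 1 alone.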

How the data were processed

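Whole lung RNA was sequenced as 100-base single-end reads from an Illumina TruSeq total RNA library kit, per the labels' protocols. Reads were trimmed and mapped to mouse genome mm9 with TopHat2 2.0.8b, and genes were counted with HTSeq, per the submitters' processing notes and the series' design text. For HTSeq, the sources used here give no version, annotation or strand setting, so that reads of overlapping or antisense genes cannot be told apart, and reads with several alignments were not counted. The deposited tables hold raw gene counts that the authors did not normalize. Lines without a gene were kept out: in the knockout set 23.1% to 25.3% of reads were assigned to genes, 36.8% to 38.4% aligned to several places and 37.3% to 40.0% fell in no gene.

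Groups came from the sample titles. Replicates were not duplicates (with D.f. extract, chi-square per degree of freedom was 9.68 between wild-type libraries and 34.3 between knockout libraries). Counts were fitted in R 4.3.3 with edgeR 4.0.16 (TMM, filterByExpr by group, glmQLFit, glmQLFTest), with treatment and genotype as terms over 6 libraries (3 residual degrees of freedom) and Benjamini-Hochberg adjusted p below 0.05 over 15294 genes. A fit with a mean per group (2 residual degrees of freedom) gave the D.f. contrast and the interaction. The 1 PBS library per genotype is assumed there to vary like the D.f. libraries. PBS differences are log2 CPM ratios with a prior count of 2 and no test, present at 2-fold, and their intervals and those of read ratios are exact conditional binomial (95%). On simulated data for the fit across treatments (15294 genes, 200 changed in each of 5 draws), the test found 69.9% of genes changed 2-fold, 96.3% of those changed 4-fold and 99.4% of those changed 8-fold, and 8.47% of calls were false. Changed genes were drawn only from those above a limit of mean reads, and each change was equal under both treatments. In the data Tlr3 (7.94-fold) and Myh6 (7.57-fold) missed the threshold, so these rates do not carry over to every gene.

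Coordinates are those of GENCODE M1 (NCBIM37, the same assembly as mm9), matched by symbol for 21430 and by synonym for 52 of 22609 genes, and 97.6% of genes tested were placed. Distances run from the nearest ends. Promoters and gene neighbours came from RefSeq (GRCm38.p6), and no coordinate was converted between builds. For the RNase III set a level was put on the side of the nearer genotype by log2(CPM + 0.25). Its PBS libraries were set against the PBS pair, and its other libraries against the D.f. genotype means.

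The members, lists and tests were chosen with earlier results of these data known. Named genes are Mavs, Tlr3, called genes within 10 Mb of them, the up to 15 largest called differences in each direction that did not overlap, were 2-fold with PBS and had a mean log2 CPM of at least 0, and up to 4 members with the smallest p of each pathway list. Chosen after their values were seen were the other called genes, the other genes within 20 Mb of Mavs or Tlr3, Ccl5, Rpph1, Rmrp, Slc6a2, Dpysl5, Sall1, Neto2, Kcnj3, Jmjd7, Ttn and the muscle markers named. Ifih1, Ddx58, Ticam1 and Ddx3y were also named outside the rule of smallest p. Alternatives were DESeq2 1.42.0, its size factors in edgeR, no filter on low counts, the average of the PBS and D.f. differences, the D.f. libraries alone, all 12 libraries, other fold and distance limits, and leaving out each library.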

Additional observations from a re-analysis of the deposited data

How the results depend on the processing

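Counts of called genes moved with the model, and directions did not: none of the 31 genes changed sign under any alternative, and Mavs was called in all 12. Across treatments 31 genes were called, 481 with DESeq2, 75 without a filter on low counts, 364 from the D.f. libraries alone, and 2 to 383 leaving out 1 library. Those higher in the knockout numbered 4, and 197, 12 and 72 under the same settings, 8 with all 12 libraries, and 0 to 76 leaving out 1. With D.f. extract 387 were called, 729 with DESeq2 and 7 to 3048 leaving out 1. Of these, 60 were present in the PBS pair, 26 at 4-fold, 95 with calls by DESeq2, and 1 to 201 leaving out 1. Called genes within 10 Mb of Mavs or Tlr3 numbered 2, 1 within 5 Mb, 4 within 20 Mb, 10 by DESeq2, and 1 to 9 leaving out 1. Interferon-stimulated genes called across treatments numbered 0, 7 with DESeq2, 4 for the average of the PBS and D.f. differences, 30 from the D.f. libraries alone, 1 with all 12 libraries, and 0 to 33 leaving out 1. Every fit that leaves out a library has fewer residual degrees of freedom, and those without a PBS library or with the D.f. libraries alone read the D.f. difference by itself; otherwise the cause was not tested. With all 12 libraries, 9 of the 29 genes measured in both sets kept their call, and with the average of the PBS and D.f. differences 20 of 31 did. Tlr3, which missed the threshold, passed with DESeq2 (-2.98), without a filter (-2.99), for the average (-2.72) and with all 12 libraries (-2.95). With 1 PBS library per genotype and 2 D.f. libraries, changes of 2-fold were recovered less often than larger ones in simulated data, and levels below 0.143 to 0.191 CPM could not be told from 0. No paired analysis was possible because the genotypes share no replicate number in the labels.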
